A study of Homo sapiens with 9 samples.

Results

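The genes described here are MYC, its partner MAX and factors of ribosome biogenesis, chosen by name for their roles in the nucleolus and in RNA polymerase I transcription. The list held 40 genes, of which 38 were measured among the 18239 genes of the array. GNL3 and EBNA1BP2 were not analysed here. Each gene was read from its probe set with a single gene symbol and the highest mean over the 9 arrays.

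All samples were K562 cells, a human line derived from chronic myeloid leukaemia that keeps erythroid features, and carried a retroviral form of calreticulin (CALR), a chaperone of the endoplasmic reticulum. There were 3 arrays with the Del52 deletion mutant, 3 with the Ins5 insertion mutant and 3 with wild-type CALR. All groups shared the same treatment, which was repeated infection with retroviral supernatant followed by bead selection of cells that carried the NGFR surface marker, so the cells were selected in bulk, and the labels report no edit of their own CALR gene. The labels number the replicates but do not say whether they came from separate cultures, so p-values measure only the spread between these arrays.

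MYC is a transcription factor that binds DNA as a dimer with MAX, typically at the E-box motif CACGTG. It is known to raise transcription by RNA polymerase I, which makes the ribosomal RNA precursor, and to activate the genes of many proteins that modify, cut and assemble that RNA into small and large ribosomal subunits. In leukaemia cells this programme is known to track growth and protein synthesis capacity.

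Values are log2 expression values made by the authors with RMA. The arrays differed mostly along 1 pattern that did not follow the constructs. This main axis, the first principal component over genes outside the members and related lists, held 70.4% of the variance, against 10.0% for the second component. Wild-type replicates 2 and 3 lay at its ends, with scores of 0.570 and -0.575, and all other arrays lay between -0.304 and 0.304. Del52 replicate 1 stood apart on the second component at -0.787. Of 10 markers of the line 8 were measured (group medians 8.20 to 8.33), with HBG1, a fetal globin, at 11.91, while the erythropoietin receptor EPOR was at 4.10, within the span of the background controls. Of the markers of other blood cells, those of T and B cells had group medians between 3.25 and 3.70, with CD3D at 6.26. The monocyte and granulocyte list had group medians of 3.03 to 3.10, although its member LYZ was at 9.65, and the fibroblast and epithelial list 3.25 to 3.56, with EPCAM at 8.54. The 23 antigenomic background controls spanned 1.53 to 6.52, and 9 of the 38 members had a mean below the upper end of that span. These were POLR1A, UBTF, RRP9, NOP14, UTP20, WDR43, PPAN, NOC3L and URB2. The upper end came from the control GC25 alone (6.21 to 6.52), and the next highest, GC24, reached 4.29.

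The E-box is shown first, because it is the motif that MYC and MAX are known to bind. RefSeq promoter windows (GRCh38.p14), from 250 bases before to 50 bases after a gene's start, were matched for 31 of the 40 genes, 29 of them measured. The letters CACGTG, which read the same on both strands, were found for 12 of these 29 genes (41.4%), against 10.9% of 14492 genes measured on the array, 13.5% of measured genes above the median level and 8.77% of all 27305 genes in the table. In 9 of the 29 genes (31.0%) the motif lay within the 50 bases after the start, against 1.26% of measured genes. Genes with more than 1 annotated start have more than 1 window. Sites are shown for the 6 genes that held the motif and also followed the main axis by Pearson's r in the test described further on. GAR1 followed it downward and the others upward. Each site is given as 30 bases with the motif in capitals.
BYSL: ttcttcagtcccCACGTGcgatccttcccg
FBL: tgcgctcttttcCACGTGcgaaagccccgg
GAR1: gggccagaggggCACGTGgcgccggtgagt
LYAR: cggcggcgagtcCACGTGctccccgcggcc
RRP9: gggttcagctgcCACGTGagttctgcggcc
WDR43: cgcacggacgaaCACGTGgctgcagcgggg

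The BYSL site is at chr6:41921515-41921544 on the plus strand, with its motif beginning at base 29 of the transcript. In the FBL site (chr19:39846356-39846385, minus strand) the motif begins at base 7. In the GAR1 site (chr4:109815781-109815810, plus strand) it begins at base 32, and in the WDR43 site (chr2:28894658-28894687, plus strand) at base 4. The LYAR motif (chr4:4290068-4290097, minus strand) lies before the start, with its first base at position -64. The RRP9 motif (chr3:51941892-51941921, minus strand) begins at position -5 and spans the start, ending on the first base of the transcript. MRTO4, NOC3L, NOP14, NOP2, PES1 and UTP20 also held the motif. MYC, BOP1, RRS1, TCOF1, NOP58, NOLC1, RRP12, RRP1B and URB2 had no entry in the table. In related lists the motif was found for 35.1% of 57 other assembly factors, 64.3% of 14 metabolic MYC targets and 6.90% of 58 ribosomal protein genes. A match of letters is not evidence of binding in these cells.

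No member differed between constructs by the test over all genes. In Del52 against wild type 0 of 38 members passed at a limma adjusted p under 0.05, with 0.0% of all genes passing, and 1 member had an unadjusted p under 0.05, against 7.05% of all genes. In Ins5 against wild type 0 of 38 passed (0.0% of all genes), and 0 had an unadjusted p under 0.05, against 7.41%. In Del52 against Ins5 0 of 38 passed (0.0% of all genes), and 2 had an unadjusted p under 0.05, against 5.77%. The moderated F test over the 3 groups called 0 members and 0.0% of all genes, and 2 members had an unadjusted p under 0.05, against 7.23% of all genes. With estimated array weights, which put nearly all weight of the wild-type group on its replicate 1 and did not converge, 11 members passed in Del52 and 1 in Ins5 against wild type, among 3190 and 4017 genes.

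MYC read 9.58, 9.38 and 9.54 in Del52, 9.48, 9.35 and 9.76 in Ins5, and 9.59, 9.92 and 9.35 in wild type. The highest value and the joint lowest both belonged to wild-type arrays, and the groups overlapped throughout. The log2 difference of MYC was -0.12 (95% interval -0.49 to 0.24, limma adjusted p = 0.962) between Del52 and wild type. It was -0.09 (-0.45 to 0.28, limma adjusted p = 1) between Ins5 and wild type, and -0.03 (-0.40 to 0.33, limma adjusted p = 1) between the mutants. Without wild-type replicate 2 the difference of MYC was 0.028 in Del52 and 0.062 in Ins5.

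MAX read 7.52, 7.47 and 7.64 in Del52, 7.66, 7.55 and 7.86 in Ins5, and 7.60, 7.76 and 7.28 in wild type. Its lowest value was in wild-type replicate 3 and its highest in Ins5 replicate 3. The largest of its differences was -0.15 ± 0.13 (SE) in Del52 against Ins5, with limma adjusted p = 1, and it was -0.064 without Ins5 replicate 3. The sign of its difference in Del52 against wild type (-0.01) turned with renewed quantile normalization (0.017) and with the mean of all probe sets (0.041).

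**Figure D1:**
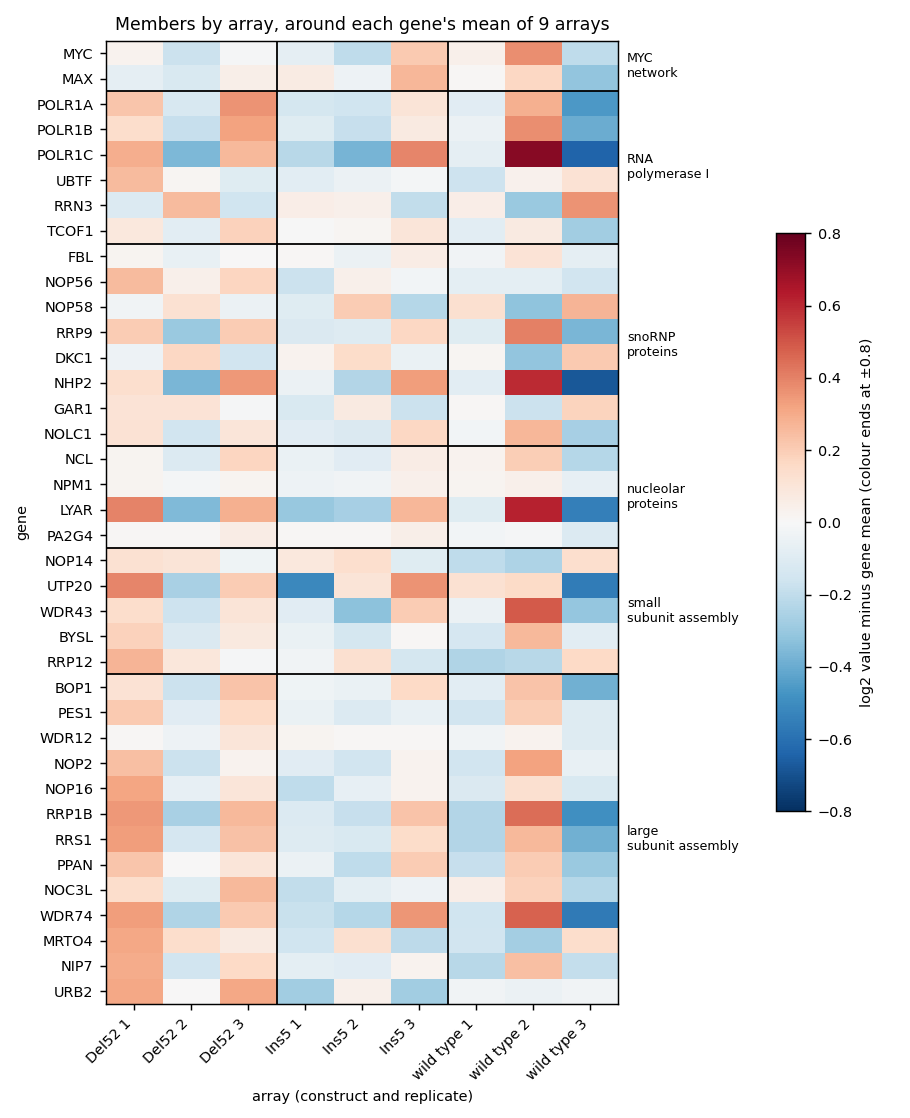
Log2 value of each of the 38 members minus that gene's mean over 9 arrays, in columns for Del52, Ins5 and wild-type replicates 1 to 3, with rows grouped by role and colours ending at ±0.8. The median member lies 0.19 above its mean in wild-type replicate 2 and 0.20 below it in wild-type replicate 3, while RRN3, NOP58, DKC1 and GAR1 are low in the first and high in the second.

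The smallest unadjusted p of a member in Del52 against wild type was that of NOP56, which encodes a core protein of the box C/D ribonucleoproteins that guide methylation of ribosomal RNA. It read 9.99, 9.78 and 9.91 in Del52, 9.57, 9.78 and 9.72 in Ins5, and 9.66, 9.66 and 9.59 in wild type. Every Del52 array lay above every wild-type array, a pattern of 6.23% of all genes. The log2 difference was 0.26 ± 0.07 (SE) in Del52 against wild type (unadjusted p = 0.00835, limma adjusted p = 0.603), and it did not pass. In Del52 against Ins5 it was 0.21 ± 0.07 (adjusted p = 0.841), and in Ins5 against wild type 0.05 ± 0.07 (adjusted p = 0.989). The 3 dimmer probe sets of NOP56 gave 0.25, 0.23 and 0.28 in Del52 against wild type, all close to that value. With each array left out in turn, the difference between Del52 and wild type lay between 0.210 and 0.317.

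URB2, a nucleolar factor needed for large subunit assembly, read 5.24, 4.93 and 5.24 in Del52, 4.65, 4.97 and 4.65 in Ins5, and 4.90, 4.88 and 4.90 in wild type. Del52 lay above wild type in every array by a margin that was small in replicate 2, whereas Ins5 and Del52 overlapped. The log2 difference was 0.38 ± 0.11 (SE) in Del52 against Ins5 (unadjusted p = 0.00924, limma adjusted p = 0.841) and 0.24 ± 0.11 in Del52 against wild type (adjusted p = 0.725). All these values lay below the background control GC25 and above every other background control.

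MRTO4, a factor that takes part in forming the stalk region of the large subunit, read 7.68, 7.51 and 7.44 in Del52, 7.21, 7.50 and 7.16 in Ins5, and 7.22, 7.10 and 7.51 in wild type. The groups overlapped. Its difference was 0.26 ± 0.13 (SE) in Del52 against wild type (adjusted p = 0.749) and 0.25 ± 0.13 in Del52 against Ins5 (adjusted p = 0.926). A dimmer MRTO4 probe set gave 0.37 and 0.22.

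In Ins5 against wild type the smallest p belonged to PA2G4, a growth-regulating protein of the nucleolus. It read 10.40, 10.40 and 10.45 in Del52, 10.40, 10.40 and 10.44 in Ins5, and 10.37, 10.38 and 10.28 in wild type. Every mutant array was above every wild-type array, by a difference of 0.07 ± 0.04 (SE) in each mutant (limma adjusted p = 0.796 for Del52 and 0.766 for Ins5). A dimmer PA2G4 probe set gave 0.11 in Del52 and 0.13 in Ins5, but its groups overlapped. There Del52 replicate 2 (7.95) and Ins5 replicate 1 (7.89) lay below wild-type replicate 1 (7.96). Every Ins5 array lay above every wild-type array for 8.16% of all genes, and PA2G4 was the only member with that order. For Del52 the same order held for NOP56, PA2G4 and URB2 (7.89% of the members), against 6.23% of all genes. No member lay below wild type in every array of Del52 or of Ins5, as 4.36% and 3.30% of all genes did. Between Del52 and Ins5 0 members lay apart in either direction, against 3.81% of all genes with Del52 above and 6.28% with Del52 below.

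NOP14, a protein of the small subunit processome, read 6.02, 6.0 and 5.86 in Del52, 5.98, 6.03 and 5.80 in Ins5, and 5.69, 5.65 and 6.03 in wild type. In wild-type replicate 3 it was as high as in any mutant array. TCOF1, which encodes treacle, a scaffold of ribosomal gene transcription, read 6.89, 6.72 and 6.99 in Del52, 6.80, 6.82 and 6.90 in Ins5, and 6.72, 6.88 and 6.53 in wild type. Their differences in Ins5 against wild type were 0.14 ± 0.11 (SE) for NOP14 and 0.12 ± 0.10 for TCOF1, with limma adjusted p = 0.864 and 0.876. Without wild-type replicate 3 they were 0.264 and 0.035, and without wild-type replicate 2 they were 0.073 and 0.210. Both turned negative as the mean of all probe sets (-0.077 and -0.008), so the probe sets of these genes disagreed.

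**Figure D2:**
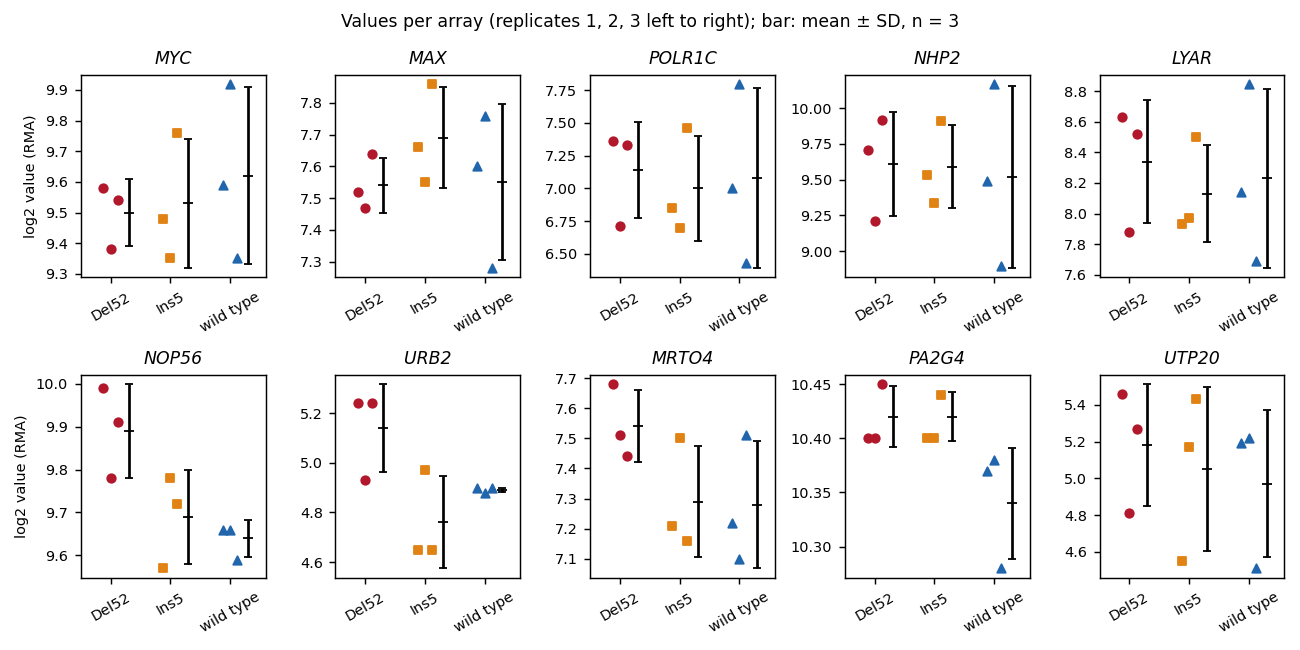
Log2 values of 10 members in each array, for Del52, Ins5 and wild type from left to right, with points in replicate order and bars for the mean ± SD (n = 3). Only NOP56, URB2 and PA2G4 show all Del52 points above all wild-type points, and the wild-type points of MYC, POLR1C, NHP2 and LYAR span more than those of either mutant.

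As a list the members were slightly higher in Del52. Against wild type 32 of 38 were higher, where 54.6% of all genes were higher, with a median log2 difference of 0.097 against 0.010 over all genes. The 13 measured large subunit factors had values of 0.00 (NOP2, 95% interval -0.33 to 0.33) to 0.26 (RRS1), with a median of 0.162, and NOP2 was -0.01 with the main axis as a covariate. In the same contrast MYC and MAX had negative values. Against Ins5 33 of 38 were higher, where 45.4% of all genes were higher, with a median of 0.111 against -0.010 over all genes. In Ins5 against wild type 19 were higher and 19 lower (median 0.002, and 0.020 over all genes), where 59.6% of all genes were higher. Del52 against wild type and Del52 against Ins5 share the Del52 arrays and are not independent. These list values rested on single arrays. Without wild-type replicate 3 only 20 of 38 members were higher in Del52 against wild type (median 0.014). Without Del52 replicate 1 the median was 0.054 against wild type and 0.030 against Ins5, with 28 and 29 members higher. Without Del52 replicate 3 it was 0.054 against wild type (29 higher), and without Del52 replicate 2 it was 0.213 against wild type and 0.195 against Ins5. Without wild-type replicate 2 it was 0.195 in Del52 and 0.077 in Ins5.

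**Figure D3:**
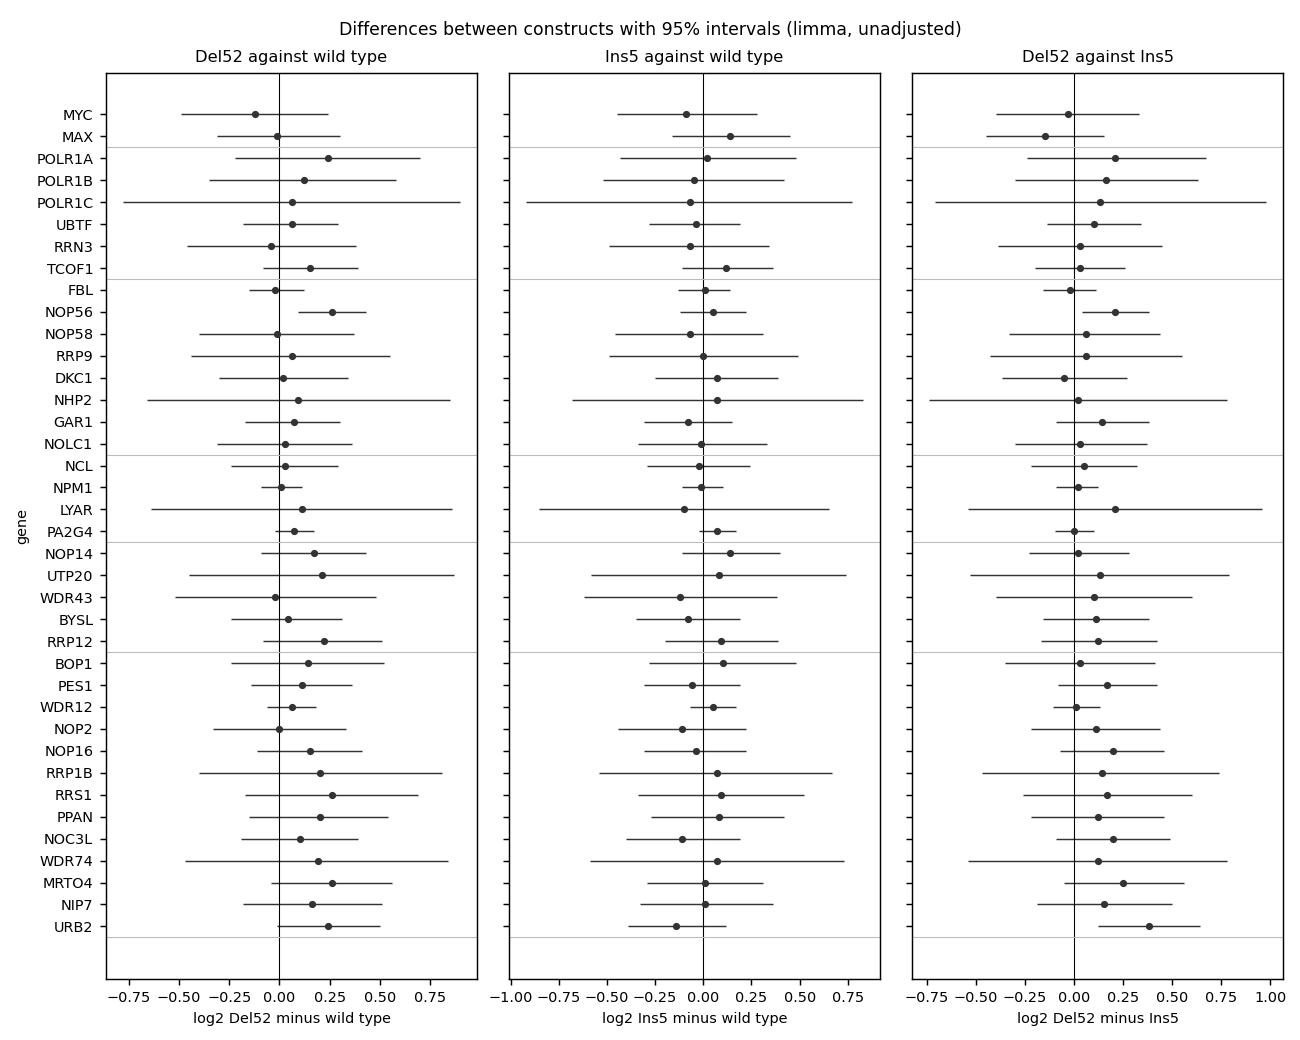
Log2 difference of each member with its 95% interval from limma, not adjusted for the number of genes, in panels for Del52 against wild type, for Ins5 against wild type and for Del52 against Ins5. The interval leaves out 0 for NOP56 in the first panel and for NOP56 and URB2 in the third, and it is wider than 1 log2 unit for genes such as POLR1C, NHP2 and LYAR.

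The members spread more between arrays than most genes. The median range of a member over the 9 arrays was 0.53 log2 units, against 0.32 over all genes. The members were brighter, with a median level of 7.57 against 4.31, and all 38 lay above the median level of all genes. The shares of all genes and gene pairs given below were not matched for level. The largest difference between group means of any member was 0.38 (URB2), which is not the same measure as a range over single arrays. In bulk RNA, fewer cells of a kind and less RNA per cell cannot be told apart. Of the 38 members, 15 had their highest value in wild-type replicate 2 and 11 in Del52 replicate 1, and 22 had their lowest in wild-type replicate 3. These extremes were not counted over all genes, so the counts do not set the members apart. The median member lay 0.16, -0.10 and 0.10 around its own mean in Del52, -0.09, -0.07 and 0.06 in Ins5, and -0.08, 0.19 and -0.20 in wild type.

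Each gene was then set against the main axis, which was turned so that MYC had a positive sign. Correlations were tested with exact permutation tests over all 362880 pairings of the 9 arrays, two-sided and adjusted over 18239 genes. Of the 38 members 20 followed the axis upward (52.6%), against 16.5% of all genes, and 4 followed it downward (10.5%), against 14.5%. Most other genes helped to set the axis, and the members did not, except that MYC set its direction. MYC is counted among the members here, although its sign was fixed in this way. By sign alone 30 members were positive, against 56.0% of all genes, and 8 negative, against 44.0%. By ranks 18 went upward, against 13.5% of all genes, and 3 downward, against 12.4%. MYC itself had r = 0.909 (exact permutation p = 0.000615, adjusted p = 0.00425, rho = 0.917, exact adjusted p = 0.00887), and r = 0.850 without wild-type replicates 2 and 3. MAX had r = 0.853 (exact adjusted p = 0.0176, rho = 0.817, exact adjusted p = 0.0417), and 0.709 without those arrays. Within groups, after each group's mean was taken out, the median member had r = 0.885, against 0.804 over the pooled arrays and 0.706 without both end arrays.

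Of 5 control measures 0 passed against the axis after adjustment. The difference between the 3-prime and 5-prime actin control probe sets ran from 1.08 in wild-type replicate 2 to 1.39 in wild-type replicate 1, with r = -0.741 to the axis (exact permutation p = 0.0220, adjusted over 5 controls 0.110, rho = -0.600, exact p = 0.0968) and -0.647 without both end arrays. For GAPDH the same measure had r = -0.675 (exact permutation p = 0.0445, adjusted 0.111, rho = -0.633, exact p = 0.0760). The 18S control had r = -0.423, the hybridisation spikes -0.459 and the labelling spikes -0.100. Their part in the members' spread was not tested.

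RNA polymerase I genes showed both directions. POLR1C, a subunit shared by RNA polymerases I and III, had the widest range of its role. It read 7.36, 6.71 and 7.33 in Del52, 6.85, 6.70 and 7.46 in Ins5, and 7.0, 7.80 and 6.43 in wild type. Its highest and lowest values were both in wild type, 1.37 log2 units apart, and it followed the axis at r = 0.980 (exact permutation p = 2.8e-05, adjusted p = 0.000757, rho = 0.967, exact adjusted p = 0.00239), with 0.953 without both end arrays. POLR1A and POLR1B, the largest subunits of the enzyme, had r = 0.905 and 0.952, and TCOF1 had 0.830, all with an exact adjusted p under the threshold. RRN3, the initiation factor that recruits the polymerase to ribosomal DNA, ran the other way. It read 6.75, 7.11 and 6.70 in Del52, 6.91, 6.90 and 6.66 in Ins5, and 6.91, 6.56 and 7.22 in wild type, so it was lowest in the array where POLR1C was highest. Its r was -0.968 (exact permutation p = 2.5e-05, adjusted p = 0.000754, rho = -0.950, exact adjusted p = 0.00389) and -0.927 without both end arrays. UBTF, the upstream binding factor of ribosomal DNA, had r = -0.090 and did not pass. Its dimmer probe sets had -0.825, -0.802 and -0.687. They correlated with the one used at -0.219, -0.109 and -0.252, so the value of UBTF depends on the probe set.

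The proteins of small nucleolar ribonucleoproteins also split, within complexes. The H/ACA complex guides pseudouridylation of ribosomal RNA and holds the synthase dyskerin (DKC1) with NHP2 and GAR1. NHP2 read 9.71, 9.21 and 9.92 in Del52, 9.53, 9.34 and 9.91 in Ins5, and 9.49, 10.17 and 8.90 in wild type, a range of 1.27. Its correlation with the axis was 0.996 (exact permutation p = 1.1e-05, adjusted p = 0.000604, rho = 0.967, exact adjusted p = 0.00239) and stayed at 0.992 without both end arrays. DKC1 read 9.82, 10.03 and 9.71 in Del52, 9.89, 10.01 and 9.81 in Ins5, and 9.88, 9.55 and 10.07 in wild type. It had r = -0.968 (exact permutation p = 2.8e-05, adjusted p = 0.000757, rho = -0.983, exact adjusted p = 0.00138) and -0.953 without both end arrays. GAR1 read 9.18, 9.18 and 9.06 in Del52, 8.95, 9.14 and 8.90 in Ins5, and 9.08, 8.90 and 9.25 in wild type. Its r was -0.792 (exact adjusted p = 0.0408), with rho = -0.767 (exact adjusted p = 0.0698) and r = -0.555 without both end arrays. Other probe sets of these genes had the same sign, at 0.997 and 0.993 for NHP2, -0.963 for DKC1 and -0.931 for GAR1.

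The box C/D complex holds the methyltransferase fibrillarin (FBL) with NOP56 and NOP58. FBL read 10.18, 10.10 and 10.16 in Del52, 10.17, 10.11 and 10.22 in Ins5, and 10.13, 10.27 and 10.09 in wild type, with r = 0.924 (exact adjusted p = 0.00311). NOP58 read 9.74, 9.89 and 9.72 in Del52, 9.67, 9.97 and 9.54 in Ins5, and 9.90, 9.45 and 10.04 in wild type, with r = -0.920 (exact adjusted p = 0.00420). NOP56 had r = 0.254 (exact adjusted p = 0.660). FBL thus went upward and NOP58 downward, and NOP56 passed in neither direction. RRP9, which binds the U3 RNA, and NOLC1, a chaperone of these particles, had r = 0.956 and 0.979 and passed.

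**Figure D4:**
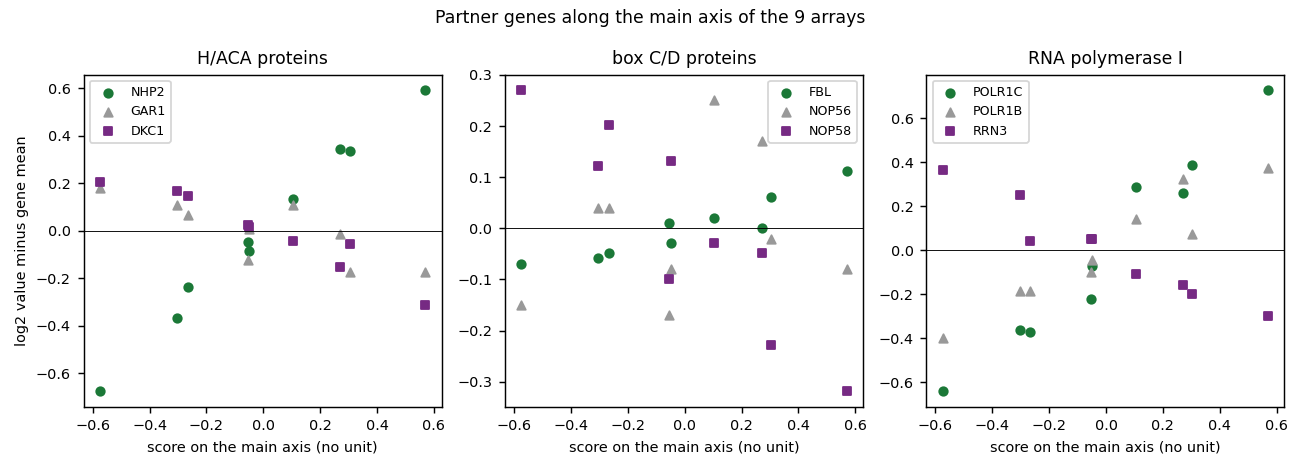
Log2 value minus gene mean against the score on the main axis for the 9 arrays, for H/ACA proteins, box C/D proteins and RNA polymerase I genes. NHP2, FBL, POLR1C and POLR1B go up to the right, DKC1, GAR1, NOP58 and RRN3 go down, and NOP56 follows neither direction.

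Of the abundant nucleolar proteins, LYAR, a growth-regulating zinc finger protein, had the widest range. It read 8.63, 7.88 and 8.52 in Del52, 7.93, 7.97 and 8.50 in Ins5, and 8.14, 8.85 and 7.69 in wild type, with r = 0.939 (exact adjusted p = 0.00249). Nucleolin (NCL), which binds the ribosomal RNA precursor, had r = 0.965 over a range of 0.43, and nucleophosmin (NPM1), a histone and ribosome chaperone, had r = 0.902 over a range of 0.11. The range of NPM1 depended on the probe set. Its dimmest one, at a mean of 9.60, had r = 0.995 over a range of 0.80. The remaining ones, at means of 11.42 to 11.62, had ranges of 0.09 to 0.22. PA2G4 had r = 0.587 over a range of 0.16 and did not pass.

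Small subunit factors had 2 of 5 genes that followed the axis upward, against 16.5% of all genes, and 0 downward, against 14.5%. UTP20, a large scaffold protein of the processome, read 5.46, 4.81 and 5.27 in Del52, 4.55, 5.17 and 5.43 in Ins5, and 5.19, 5.22 and 4.51 in wild type. These values lay below the background control GC25 and above every other background control. The lowest values of UTP20 were in wild-type replicate 3 and Ins5 replicate 1, and its r of 0.677 did not pass (exact adjusted p = 0.118). WDR43 (r = 0.950) and BYSL (0.779) passed, although BYSL did not by ranks (rho = 0.733, exact adjusted p = 0.0930) and the second WDR43 probe set had r = 0.341. NOP14 (-0.722) and RRP12 (-0.578) had negative values and did not pass.

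Among large subunit factors 5 of 13 followed the axis upward, against 16.5% of all genes, and 0 downward, against 14.5%. WDR74 read 7.34, 6.77 and 7.22 in Del52, 6.83, 6.78 and 7.36 in Ins5, and 6.85, 7.48 and 6.44 in wild type, with r = 0.950 (exact adjusted p = 0.00125). RRP1B (0.931), BOP1 (0.946), RRS1 (0.849) and PPAN (0.829) were the others, and by ranks RRS1 and PPAN did not pass (exact adjusted p = 0.0595 and 0.0698). BOP1, PES1 and WDR12 form the PeBoW complex, needed to mature the large subunit RNA, and PES1 (0.691) and WDR12 (0.737) did not pass. NOC3L, NIP7, NOP2 and NOP16 had r between 0.582 and 0.761 and did not pass by Pearson's r. By ranks NOC3L did pass (rho = 0.817, exact adjusted p = 0.0417), and NIP7, NOP2 and NOP16 did not. MRTO4 had -0.548 and URB2 0.043, and neither passed.

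**Figure D5:**
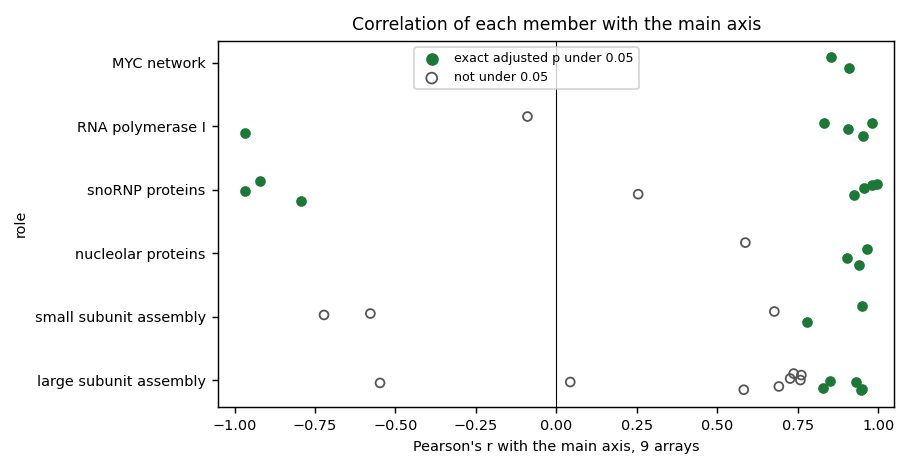
Pearson's r of each member with the main axis over 9 arrays, in a row per role, filled where the exact permutation p adjusted over all genes was under 0.05. Of the 38 points 20 are filled on the right and 4 on the left, for RRN3, DKC1, NOP58 and GAR1.

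Genes related to the list were counted in the same way, where 16.5% of all genes went upward and 14.5% downward. Of 64 other assembly factors 36 followed the axis upward (56.2%, against 52.6% of the members) and 5 downward, and their median r was 0.811. Of 68 ribosomal protein genes 24 went upward and 8 downward (median r 0.502), over a median range of 0.12 log2 units, against 0.53 for the members. Their median level was 11.54, against 7.57 for the members, and the highest value on any array was 12.23. Whether the top of the scale narrowed their range was not tested. Other RNA polymerase I genes had 5 of 15 upward and 1 downward, metabolic MYC targets 7 of 17 upward and 2 downward, and partners in the MYC-MAX network 3 of 10 upward and 0 downward. No gene of these lists passed between constructs.

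The members were also set against MYC itself. Of 37 other members 12 had a positive correlation past the exact permutation test adjusted over 18238 genes, against 11.9% of all genes, and 5 a negative one, against 12.1%. By sign alone 28 were positive, against 55.5% of all genes, and 9 negative, against 44.5%. The clearest positive one was WDR43 (r = 0.953, exact permutation p = 9.4e-05, adjusted p = 0.00751, rho = 0.933, exact adjusted p = 0.0284), a processome protein whose promoter window held the E-box, with r = 0.892 without wild-type replicate 2 and Ins5 replicate 3. FBL (0.931), POLR1C (0.927) and NOLC1 (0.916) followed, with 0.741, 0.863 and 0.846 without both arrays. The 5 negative ones were DKC1 (-0.891), NOP58 (-0.883), RRN3 (-0.847), NOP14 (-0.831) and GAR1 (-0.782). Without both arrays these were -0.843, -0.647, -0.734, -0.667 and -0.434, in that order. By ranks 8 positive and 2 negative ones passed, against 6.40% and 7.52% of all genes. The second WDR43 probe set, at a mean of 5.97, had r = 0.124 with MYC and 0.268 with the first one, so the value of WDR43 rests on 1 probe set. MYC lies on the main axis. After the axis was taken out of both genes, only 11 of the 37 members correlated positively with MYC and 26 negatively (median r -0.288), where 46.5% of all genes were positive. WDR43 was the highest at 0.689 and WDR12 the lowest at -0.971, with TCOF1 at -0.910 and NHP2 at -0.811. This tally was added after values were seen, and it is a description of 9 arrays.

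The split by E-box was described without a test. The 12 genes with the motif had a median r of 0.658 with MYC and 0.744 with the main axis, and the 17 without it had 0.692 and 0.829. Positive correlations with MYC were found for 9 of 12 and 14 of 17, against 55.5% of all genes. By the exact adjusted p, 6 of the 12 with the motif and 11 of the 17 without it followed the main axis in either direction. Of all genes 16.5% followed it upward and 14.5% downward.

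Members also varied with each other. Of 703 pairs of members 56.3% had r over 0.5, against 18.2% of all gene pairs, and 18.1% had r under -0.5, against 17.1%. After group means and the main axis were taken out, 38.8% of member pairs were over 0.5, against 25.3% of all pairs, and 15.6% were under -0.5, against 25.2%. The pairs share the same 9 arrays and are not independent.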

How the data were processed

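The deposited table held log2 values per probe set for 9 arrays, which the authors had made with RMA and Partek, per the submitters' processing notes. RMA subtracts background, equalises the arrays and summarises probes into probe sets. No version or setting is given in the sources used here. The scale was taken as log2 because the highest value was 12.2. Array medians were 3.73 to 3.76. Of 49386 probe sets, 45253 had 1 gene symbol in the platform annotation and were no controls. RefSeq GRCh38.p14 held 45172 of them by gene ID, with 0 renamed. The brightest probe set per gene gave 18239 genes. Arrays have no read depth, so their number limits the precision.

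Contrasts came from 1 fit of all 9 arrays with a mean per group and no block (limma 3.58.1, R 4.3.3), adjusted by Benjamini-Hochberg over all genes and tested on simulated data. Correlations used Python 3.11.15 and numpy 2.4.6. The alternatives covered normalization, filters, probe sets, weights, covariates and left-out arrays. Members, lists, tests and alternatives were chosen with earlier results of these data known. All members may be named. Values per array were given for MYC, MAX, the widest-ranging member of each role and the 3 smallest p-values of each contrast. Those of RRN3, DKC1, GAR1, FBL and NOP58 were added after their values were seen.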

Additional observations from a re-analysis of the deposited data

How the results depend on the processing

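In every setting tried except array weights, 0 members passed between constructs. The number of genes past the threshold was 0 in each contrast, and 0 with any 1 array left out (limma, smallest adjusted p = 0.603 in Del52 against wild type, 0.373 in Ins5 against wild type and 0.841 in Del52 against Ins5). With the main axis as a covariate it was 4 in Del52 and 7 in Ins5 against wild type, with no member among them. With array weights it was 3190 and 4017, with 11 members and 1 member. That estimate gave wild-type replicate 1 a weight of 67.0 and the other arrays 0.237 to 1.82, and it stopped before it converged. There NOP56 (0.266), URB2 (0.280) and MRTO4 (0.351) passed in Del52 and NOP14 (0.265) in Ins5, and MYC turned to 0.026 in Del52 against Ins5. With each array left out, the members' median ran from 0.014 to 0.213 in Del52 and from -0.071 to 0.077 in Ins5 against wild type, and from 0.030 to 0.195 in Del52 against Ins5. For MYC these ranges were -0.259 to 0.028, -0.225 to 0.062 and -0.124 to 0.082 in the same order, and for MAX -0.140 to 0.101 in Del52 against wild type. With quantile normalization repeated MAX was 0.017 in Del52 against wild type. With the mean of all probe sets MAX was 0.041 there, and NOP14 and TCOF1 were -0.077 and -0.008 in Ins5 against wild type. The cause was not tested. The members' count of positive correlations was 29 to 31 of 38 with the main axis and 27 to 30 of 37 with MYC when normalization, gene filter, probe set rule, ranks, group means and left-out arrays were varied, where UBTF, URB2, NOP56 and PA2G4 changed sign. With the main axis taken out, 11 of 37 were positive with MYC. Deviations of same-numbered arrays from their group means correlated between -0.923 and 0.643, and those of differently numbered arrays between -0.767 and 0.876. The deviations still hold the main axis, so these ranges cannot show whether the replicate numbers pair the arrays. With the replicate number as a block the count stayed at 0 in each contrast, and 2.12% of genes had an unadjusted p under 0.05 in Del52 against wild type, against 7.05% without the block.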
